A study of Mus musculus with 12 samples.

Results

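Tagged ribosomes purified from a synaptic fraction of the mouse cortex (SynapTRAP) were compared with tagged ribosomes purified from the whole cortex (TRAP), across all expressed genes. The comparison uses 6 of the 12 libraries of the series, 3 SynapTRAP and 3 TRAP, taken from the sample titles, and 13137 of the 29879 genes in the files had enough counts to be tested. All 12 libraries come from the cortex of postnatal day 21 mice of 1 transgenic line, SNAP25 BacTRAP. In such a line a bacterial artificial chromosome expresses an eGFP-tagged ribosomal protein under the regulatory sequences of Snap25, a gene of neurons, so that an antibody to eGFP pulls down neuronal ribosomes with the mRNAs they carry. TRAP libraries were made by this pull-down from cortex, and SynapTRAP libraries by the same pull-down from the synaptic (SN) band of a sucrose and Percoll gradient. The other 6 libraries hold RNA without any pull-down, 3 of the same band (SNF) and 3 of whole cortex (WCH), and are used here only to set the same step beside it. All groups carry the transgene. Sex, the number of animals per library and whether same-numbered libraries share an animal were not given in the sources used here, so the tests measure the spread between these libraries, which may be technical.

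Neurons translate part of their mRNAs far from the cell body, in dendrites and axons, and a synaptic band is rich in pinched-off nerve endings with attached postsynaptic membrane. It also holds mitochondria, myelin and fragments of glial processes. Proteins that span a membrane or are secreted are translated by ribosomes docked on the endoplasmic reticulum (ER), soluble proteins by free ribosomes. The mRNAs of the mitochondrial genome are translated by separate ribosomes inside the mitochondrion, which the tag does not label.

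The SynapTRAP libraries held 8938193 to 10084335 counts on genes and the TRAP libraries 4368881 to 6503955. The mitochondrial genome took 34.6%, 20.4% and 63.3% of these in SynapTRAP and 5.16%, 0.93% and 5.43% in TRAP, which left 3585898 to 7115176 and 4328253 to 6168574 counts outside it. All levels below are counts per 1000000 (CPM) of those outside the mitochondrial genome, scaled by the trimmed mean of M-values (TMM), and per-library values are given in the order of replicates 1, 2 and 3. SynapTRAP 3 stood apart in its mitochondrial share and in the nuclear RNA Malat1, at 325, 312 and 3493 CPM in SynapTRAP. TRAP 3 stood apart in spectrin and ankyrin genes, which summed to 15287, 4064 and 76475 CPM in TRAP, and in GFP. The transgene's GFP sequence was at 20.2, 21.3 and 15.9 CPM in SynapTRAP against 45.6, 46.2 and 117 CPM in TRAP, and was thus lower in SynapTRAP in every library (log2 fold change -1.85 ± 0.32 (SE), adjusted p = 0.000128, and -1.24 without TRAP 3). Rpl10a, the native gene of the ribosomal protein that BacTRAP lines tag, was at 2.54, 3.04 and 3.43 CPM in SynapTRAP against 2.16, 2.68 and 2.54 CPM in TRAP, low levels that overlapped. Reads of such genes can be lost or split between near-identical copies, so its level is uncertain.

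At an adjusted p under 0.05 in edgeR's quasi-likelihood test, 2936 genes (22.3% of those tested) were higher in SynapTRAP and 2434 (18.5%) were lower, together 40.9%. The rises were larger than the falls: 672 genes rose by more than 2 on the log2 scale and 96 fell by more than 2, and the median of the called genes was 1.33 for rises and -1.07 for falls. The scaling sets the balance of the directions. With total counts outside the mitochondrial genome the median gene moved from -0.02 to -0.30 and the calls to 2071 higher and 3596 lower. With total counts that include it the median moved to -0.999 and the calls to 596 and 6399. Changes below are relative to the bulk of genes outside the mitochondrial genome, and taken as a difference from the median of all genes the median of each of the 47 gene lists kept its sign under all 4 other scalings, while 9 lists' own medians changed sign with total counts that include the mitochondrial genome. Under that scaling 39 of 167 named genes lost their call with the sign kept, and Eif3a and Pum2 lost theirs as their sign changed.

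The 12 largest rises among genes of at least 20 CPM whose groups did not overlap were of few kinds. Genes of the mitochondrial genome made up 8 of them: the ribosomal RNAs mt-Rnr1 and mt-Rnr2, the transfer RNAs mt-Tc and mt-Tl1, and the mRNAs mt-Nd6, mt-Nd2, mt-Nd1 and mt-Co1. The other 4 were Itgam (ENSMUSG00000030786), an integrin of microglia, Dio2, the deiodinase with which astrocytes activate thyroid hormone, Kcnj10 (ENSMUSG00000044708), the inward rectifier potassium channel of glia, and Fyb, an adaptor of blood and immune cells. Itgam stood at 112, 110.2 and 43.1 CPM in SynapTRAP against 4.46, 3.45 and 7.08 CPM in TRAP, a 17.8-fold difference (log2 4.15 ± 0.39, adjusted p = 3.75e-07). Kcnj10 stood at 1172, 602 and 406 CPM in SynapTRAP against 52.5, 33.3 and 55.6 CPM in TRAP (log2 3.94 ± 0.35, adjusted p = 1.52e-07). Dio2 differed by 3.96 ± 0.64 and Fyb by 3.84 ± 0.46 on the log2 scale, Fyb by 4.81 without TRAP 1.

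Under the same filters the 12 largest falls were smaller, from -2.54 to -2.17 on the log2 scale. The rankings of rises and falls left out pseudogenes and genes with no symbol or a predicted name. Among all called genes falls reached -5.10, and 11 genes lay below -3. A2ml1, a secreted protease inhibitor, fell most of the 12, from 39.1, 58.1 and 41.4 CPM in TRAP to 5.59, 12.8 and 4.68 CPM in SynapTRAP (log2 -2.54 ± 0.33, and -3.16 without SynapTRAP 2). Calm2 (ENSMUSG00000036438), 1 of the 3 genes that encode calmodulin, was the most abundant of them, at 562, 777 and 422 CPM in SynapTRAP against 2715, 2218 and 3081 CPM in TRAP (log2 -2.19 ± 0.26, adjusted p = 2.46e-06), and every SynapTRAP library lay below every TRAP library. Tesc and S100a10, small calcium-binding proteins, fell by 2.32 and 2.38. Polr2i and Polr2j, small subunits of RNA polymerase II, stood at -2.17 and -2.21, Bex3 at -2.18, Fbll1 at -2.398, the Ras-like Rasl10a at -2.27, the myosin light chain Myl4 at -2.24 and the muscle actin Acta1 at -2.23. Hist1h4d, a histone gene with near-identical copies, stood at -2.28 and was not called without TRAP 3 (-1.38, adjusted p = 0.0688).

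Marker genes of glia were higher in SynapTRAP. Of 118 tested genes on 9 lists of glial, vascular, meningeal, blood and choroid plexus markers, 88 rose and 1 fell, with a median log2 fold change of 2.33, where 22.3% of all genes rose. All 20 astrocyte markers rose (median 2.80), and the list summed to 45823, 31073 and 26000 CPM in SynapTRAP against 3755, 2247 and 4461 CPM in TRAP. Slc1a2, the main glutamate transporter of astrocytes, was at 27851, 19806 and 16144 CPM in SynapTRAP against 1486, 938 and 2151 CPM in TRAP (log2 3.802 ± 0.35, adjusted p = 1.92e-07). Apoe, the lipid carrier that astrocytes secrete, was at 1300.4, 873 and 978 CPM in SynapTRAP against 117, 39.9 and 133 CPM in TRAP, and Gfap, their intermediate filament, at 176, 119 and 227 CPM in SynapTRAP against 32.2, 17.6 and 70.1 CPM in TRAP (log2 2.12, and 2.77 without TRAP 3). The receptors Fgfr3 and S1pr1 rose by 2.91 and 3.19. No SynapTRAP library overlapped a TRAP library for any astrocyte marker.

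All 20 microglia markers rose as well (median 3.14), although the list summed to only 3392, 2513 and 1494 CPM in SynapTRAP and 270.3, 144 and 311 CPM in TRAP. The purinergic receptor P2ry12 was at 59.1, 75 and 49.6 CPM in SynapTRAP against 8.05, 2.87 and 5.45 CPM in TRAP (log2 3.46 ± 0.32), and the fractalkine receptor Cx3cr1 at 94.05, 83.7 and 23.1 CPM in SynapTRAP against 9.35, 6.13 and 7.08 CPM in TRAP (log2 3.15 ± 0.44). Of 20 oligodendrocyte markers, 18 rose (median 2.33). The tetraspanin Tspan2 was at 395, 431 and 569 CPM in SynapTRAP against 80.9, 36.8 and 71.4 CPM in TRAP (log2 2.88 ± 0.28, adjusted p = 2.96e-07), and the galactolipid enzyme Ugt8a rose by 2.34. Mbp, whose mRNA is carried into myelin processes, was at 13103, 9904 and 35325 CPM in SynapTRAP against 2692, 323 and 12600.0 CPM in TRAP. These levels overlap and it did not pass the test (log2 1.901, adjusted p = 0.179), but did without TRAP 3 (3.64, adjusted p = 0.00129). With all libraries kept, Mbp passed in edgeR with no low count filter (1.83, adjusted p = 2.39e-05). It also passed in limma voom with sample quality weights, under which libraries need not count equally (2.895, adjusted p = 0.00259). Of 11 precursor markers 10 rose (median 1.98), among them Pdgfra by 2.25 and the proteoglycan Bcan by 2.11.

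Vascular markers moved less clearly. Of 12 fibroblast and meninges markers 9 rose (median 2.53; Igfbp2 3.44, Dcn 2.46), but only 2 of 13 endothelial and 4 of 9 mural cell markers did, counts that became 9 and 8 without TRAP 2 (0 endothelial markers without TRAP 1, and 1 without SynapTRAP 1, SynapTRAP 2 or TRAP 3). Of 7 blood markers 2 rose and 1 fell (none fell when any library but TRAP 1 was left out), and of 7 choroid plexus and ependyma markers 4 rose. In these bulk libraries fewer cells of a type, or fewer of their fragments, and less RNA per cell cannot be told apart. The part of this non-neuronal RNA in the results that follow was not tested.

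**Figure D1:**
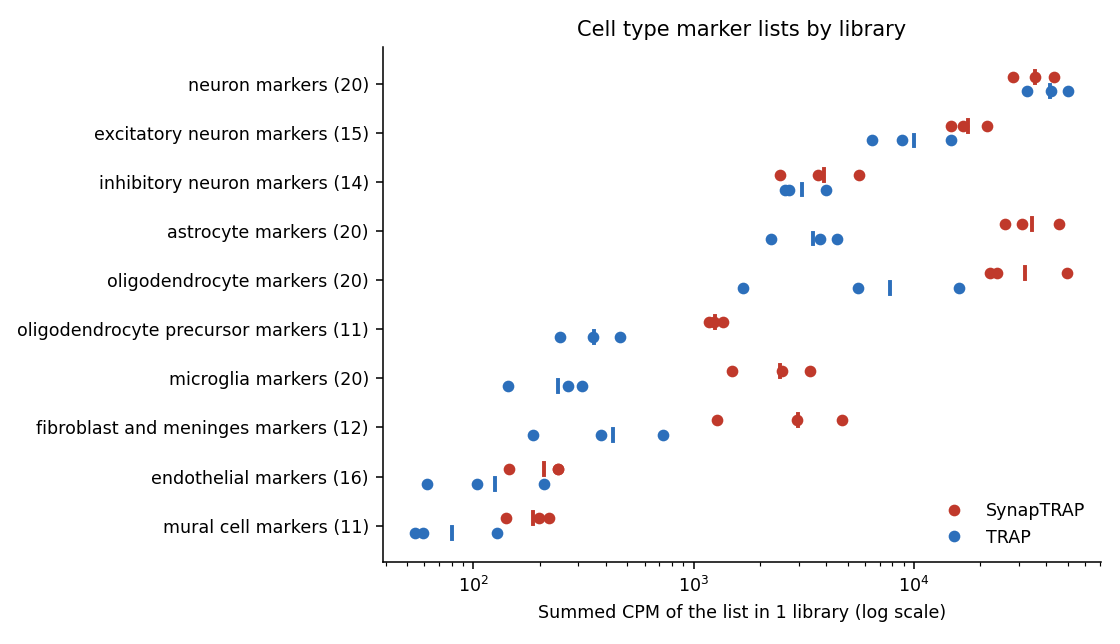
Summed CPM of each cell type marker list in the 6 libraries (log axis; list size in brackets; points are libraries, bars are group means). The astrocyte list lies at 26000 to 45823 CPM in SynapTRAP and 2247 to 4461 CPM in TRAP, while the neuron list overlaps between the groups.

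The neuron marker list split. It summed to 35313, 43395 and 28274 CPM in SynapTRAP and 42089, 32716 and 50330 CPM in TRAP, which overlap. Of its 20 members 10 fell and 5 rose, against 18.5% and 22.3% of all genes (2 rose without TRAP 1 or without TRAP 2). Snap25 (ENSMUSG00000027273), the SNARE protein whose regulatory sequences drive the tag, fell from 22549, 13560.0 and 19610.0 CPM to 6129, 7385 and 5112 CPM (log2 -1.58 ± 0.28, adjusted p = 0.000171). The ubiquitin hydrolase Uchl1 and the growth cone protein Gap43 fell by 1.48 and 1.35, both with every SynapTRAP library below every TRAP library. Syp (ENSMUSG00000031144), the vesicle membrane protein synaptophysin, rose instead, at 3547, 3528 and 1876 CPM in SynapTRAP against 1165, 1206 and 1805 CPM in TRAP (log2 1.1 ± 0.28, adjusted p = 0.00355).

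Of 14 inhibitory neuron markers 4 rose and 1 fell (3 fell without SynapTRAP 2), and of 15 excitatory neuron markers 3 rose and 6 fell (1 rose without TRAP 2), and apart from the 6 excitatory falls these counts lie near or below the shares of all genes (22.3% higher, 18.5% lower). Among inhibitory markers the peptide Vip (61.3, 67.5 and 35.6 CPM in SynapTRAP against 12.4, 13.4 and 12.2 CPM in TRAP; log2 2.12 ± 0.302), the receptor kinase Erbb4 (1.64), the secreted glycoprotein Reln (1.61) and the vesicular GABA transporter Slc32a1 (1.498) rose. The calcium buffer Pvalb fell, at 16.8, 18.4 and 8.74 CPM in SynapTRAP against 58.1, 59.8 and 40.1 CPM in TRAP (log2 -1.82 ± 0.28). The GABA-synthesising enzyme Gad1 was at 248, 245 and 109 CPM in SynapTRAP against 299, 164 and 179.9 CPM in TRAP, which overlap (log2 -0.09, adjusted p = 0.816). Among excitatory markers the transcription factors Neurod6 (-1.896) and Fezf2 (-1.83) fell, the vesicular glutamate transporter Slc17a6 rose (1.104), and Slc17a7 did not pass the test (0.598, adjusted p = 0.103) except without SynapTRAP 3 (0.91, adjusted p = 0.0144).

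Within the synaptic vesicle and fusion list, which held 14 rises and 15 falls among 39 genes, the called genes sorted by where the protein sits. The list was sorted by textbook topology after its values were seen, so the split and the examples picked from it are a description with no test. Of 18 genes whose proteins span the vesicle membrane and are inserted at the ER during translation, 14 rose and none fell (range 0.51 to 1.55, median 1.02). Among them were Syp, the calcium sensors Syt1 (0.96) and Syt2 (1.29), the vesicle glycoproteins Sv2a (1.14) and Sv2c (1.55), and Slc32a1, which was at 108, 123 and 70.9 CPM in SynapTRAP against 31.5, 31.4 and 44.5 CPM in TRAP. Syt4, a synaptotagmin of dense-core vesicles, was at 374, 486 and 259 CPM in SynapTRAP against 141, 134 and 159 CPM in TRAP (log2 1.37 ± 0.24, adjusted p = 0.000152). Of 16 genes whose proteins have no membrane span, 11 fell and none rose (range -1.84 to 0.22, median -1.07). These included the synuclein Sncb at 31.7, 52.9 and 35.9 CPM in SynapTRAP against 116, 205 and 112 CPM in TRAP (log2 -1.84 ± 0.26), the SNARE-disassembling ATPase Nsf (-1.29) and its adaptor Napa (-1.39 ± 0.21), the complexin Cplx1 (-1.004) and the lipid-anchored Snap25.

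Proteins held by a C-terminal tail span the membrane too, but are inserted only after translation ends. Of 4 such SNAREs on the list 3 fell, Vamp1 (-1.25), Vamp2 (-0.72) and Stx1a (-1.14). The SNF and WCH libraries, which share no library with these 6, gave the same counts by direction for the tail-anchored genes (3 of 4 lower) and those without a span (11 of 16 lower), and all 18 genes of the spanning class were higher there.

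**Figure D2:**
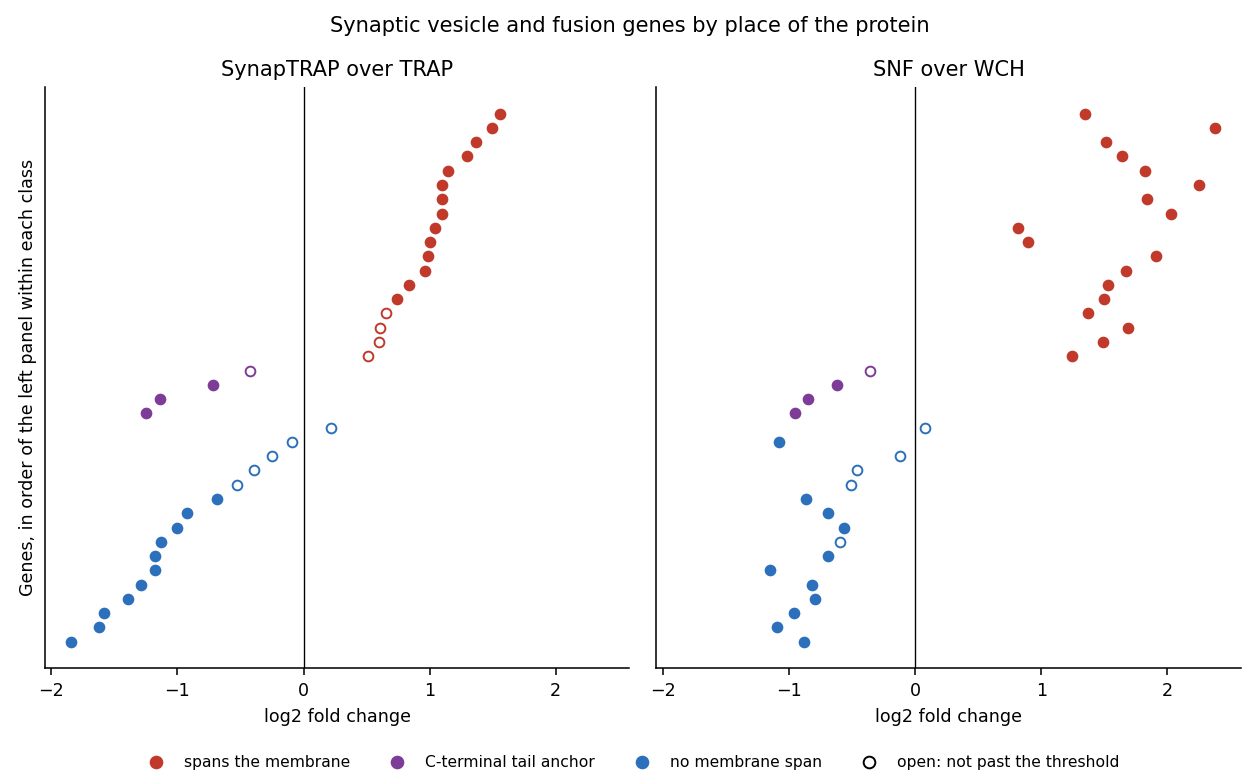
log2 fold change of 38 synaptic vesicle and fusion genes in SynapTRAP over TRAP (left) and SNF over WCH (right), 1 row per gene, coloured by how the protein meets the membrane; filled points have an adjusted p under 0.05. The 18 membrane-spanning proteins all lie to the right of 0 in both panels, and no tail-anchored member does; the mitochondrial outer membrane gene of the list, Vdac1, is left out.

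Genes of receptors, channels, pumps and carriers in the plasma membrane gave many rises and few falls. Of 24 glutamate receptor genes, 17 rose and none fell (median 0.95), against 22.3% and 18.5% of all genes. The metabotropic receptor Grm3 was at 322, 289 and 239.7 CPM in SynapTRAP against 77.5, 113 and 88.97 CPM in TRAP (log2 1.61 ± 0.22, adjusted p = 1.27e-05), and the NMDA receptor subunit Grin2c rose by 2.03 from a low level of 3.74, 8.05 and 6.54 CPM. Of 17 GABA receptor and gephyrin genes, 12 rose and none fell (median 0.92; 7 rose without SynapTRAP 2 or without TRAP 1). The subunit Gabra3 was at 149, 168 and 105 CPM in SynapTRAP against 37.2, 50.4 and 53.2 CPM in TRAP (log2 1.59 ± 0.23) and Gabrg1 rose by 2.21, while Gphn, the cytosolic scaffold of these receptors, stood at -0.21 and was not called. Of 28 synaptic adhesion genes, 24 rose and none fell (median 1.02), with the receptor phosphatase Ptprd at 757, 1164 and 720.1 CPM in SynapTRAP against 286, 244 and 359 CPM in TRAP (log2 1.57 ± 0.24), the cell adhesion molecule L1cam at 1.51 and the latrophilin Adgrl3 at 1.34.

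Sodium and calcium channels gave 18 rises and 2 falls among 24 genes (median 0.94). The pore-forming subunits Cacna1e (1149.9, 1411 and 924 CPM in SynapTRAP against 436, 358 and 411 CPM in TRAP; log2 1.53 ± 0.23), Cacna1b (1.22), Cacna1a (1.11), Scn3a (1.27) and the leak channel Nalcn (1.32) rose. Both falls were beta subunits of calcium channels, which are cytosolic: Cacnb1 was at 42.2, 58.8 and 42.4 CPM in SynapTRAP against 115, 145 and 172 CPM in TRAP (log2 -1.59 ± 0.23, adjusted p = 1.77e-05) and Cacnb2 fell by 1.34. Of 38 potassium and HCN channel genes 22 rose and 1 fell (median 0.82; 14 rose without SynapTRAP 2 and 13 without TRAP 1). Kcna6 rose by 1.56 and the pacemaker channel Hcn2 by 1.39. The gene that fell, Kcnip4 (68.3, 86.7 and 56.8 CPM in SynapTRAP against 186, 113 and 156 CPM in TRAP; log2 -1.098 ± 0.23), encodes a calcium-binding partner of potassium channels.

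Of 16 sodium and calcium pump genes 15 rose (median 1.30) and of 22 carriers 18 rose (median 1.15), with no fall in either. The glial sodium pump beta subunit Atp1b2 was at 990.5, 856 and 514 CPM in SynapTRAP against 225, 218 and 232 CPM in TRAP (log2 1.805 ± 0.25), the neuronal calcium pump Atp2b3 was at 412, 532 and 293 CPM in SynapTRAP against 141, 107 and 159.6 CPM in TRAP (log2 1.604 ± 0.26), and the astrocyte glutamate transporter Slc1a3 rose by 3.67. Of these genes 1 pump and 4 carriers are also on a list of non-neuronal markers, and without them 14 of 15 pumps and 14 of 18 carriers rose. None of the receptor, channel or adhesion genes is on such a list. Axon guidance and Eph receptor genes gave 31 rises among 36 (median 1.08), with the semaphorin receptor Plxnb1 at 2.18 and the secreted ligands Slit1 and Slit2 at 1.61 and 1.46; 21 rose in the lowest of the leave-one-out fits.

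Lists of the ER and secretory pathway, of lysosomes and of cholesterol synthesis and uptake also gave more rises than falls. Of 44 ER and secretory pathway genes 30 rose and 4 fell (median 1.08). The ER chaperone Hsp90b1 was at 627, 741 and 751 CPM in SynapTRAP against 204, 154 and 237 CPM in TRAP (log2 1.83 ± 0.24, adjusted p = 5.63e-06), the lectin chaperone Canx at 647, 789.6 and 474 CPM in SynapTRAP against 174, 194 and 224 CPM in TRAP (log2 1.69 ± 0.24), and the translocon partner Sec63 at 1.41. The 4 falls were the cytosolic coat subunits Sec24c (57.1, 56.9 and 54.9 CPM in SynapTRAP against 108, 106 and 107 CPM in TRAP; log2 -0.92 ± 0.2) and Copg1 (-0.83) and 2 tail-anchored proteins, the translocon subunit Sec61b (-0.98) and the SNARE Sec22b (-0.75); the last pair was picked after its values were seen. Sec61a1, the translocon subunit that spans the membrane many times, rose by 1.21. Of 22 lysosome genes 21 rose (median 1.32), with the membrane protein Lamp2 at 283, 284 and 214 CPM in SynapTRAP against 84.4, 47.9 and 64.8 CPM in TRAP (log2 1.98 ± 0.24) and Cd63 at 3.35. Of 21 cholesterol genes 13 rose and 1 fell (median 0.93), and the synthesis enzymes Cyp51 (174, 197 and 162 CPM in SynapTRAP against 34.8, 37.6 and 38.9 CPM in TRAP; log2 2.26 ± 0.23) and Msmo1 (1.84), both embedded in the ER membrane, were among the rises. The astrocyte markers were higher in the same 3 libraries as these groups, and their part in them was not tested.

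**Figure D3:**
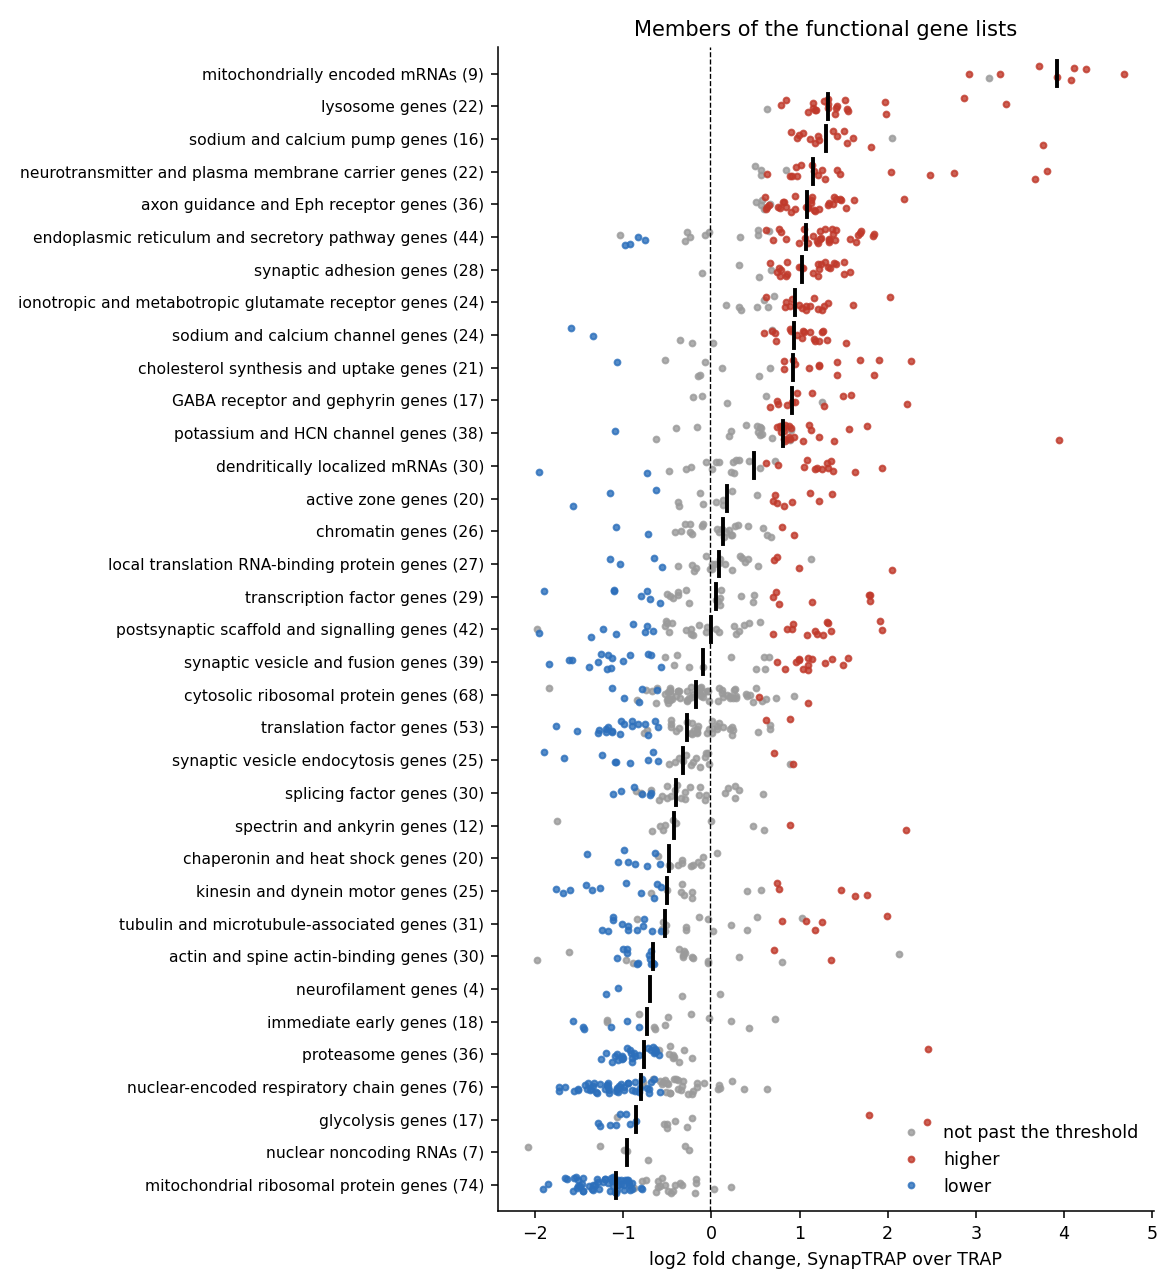
log2 fold change of every tested member of each functional list in SynapTRAP over TRAP (number tested in brackets; red higher, blue lower, grey not past an adjusted p of 0.05; black bars are medians, the dashed line is the median of all genes). Lists of membrane and secretory proteins have medians from 0.82 to 1.32, and mitochondrial ribosomal protein genes one of -1.08.

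Postsynaptic scaffold and signalling genes went both ways, with 13 rises and 8 falls among 42 (median 0.00; 7 rose without TRAP 2). Of all genes 22.3% rose and 18.5% fell, and the falls, and the rises without TRAP 2, lie near or below those shares. Among the rises were the scaffolds Shank3 (483, 379 and 648 CPM in SynapTRAP against 185, 89.9 and 328 CPM in TRAP; log2 1.32 ± 0.32, adjusted p = 0.00317) and Dlgap3 (346, 227 and 462 CPM in SynapTRAP against 136, 96.9 and 183 CPM in TRAP; log2 1.31 ± 0.26), the actin-binding spinophilin Ppp1r9b (1.35), Cyfip1 (1.27) and the CaMKII inhibitor Camk2n1, which at 2367, 1378 and 4943 CPM in SynapTRAP against 1106, 476 and 719 CPM in TRAP rose by 1.92 ± 0.39. Dlg3, a relative of PSD-95, fell at 63.4, 89.4 and 64.6 CPM in SynapTRAP against 177, 166 and 168 CPM in TRAP (log2 -1.23 ± 0.21), and the spine exchange factor Kalrn fell at 804, 696 and 750.0 CPM in SynapTRAP against 1553, 2129 and 5025 CPM in TRAP (log2 -1.95 ± 0.31, and -1.29 without TRAP 3). PSD-95 itself (Dlg4) was at 667, 557 and 816 CPM in SynapTRAP against 428, 817 and 719 CPM in TRAP. These levels overlap, and the log2 fold change of 0.06 changed sign without SynapTRAP 3 or TRAP 1.

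mRNAs known to be carried into dendrites gave 13 rises and 2 falls among 30 (median 0.49), beside 22.3% and 18.5% of all genes. Ddn (dendrin) was at 923, 538 and 1330.3 CPM in SynapTRAP against 354, 226 and 490.1 CPM in TRAP (log2 1.38 ± 0.29, adjusted p = 0.000817), the calcium release channel Itpr1 at 1014, 981 and 900.5 CPM in SynapTRAP against 499, 385 and 516 CPM in TRAP (log2 1.05 ± 0.21), and the kinase Camk2a at 13271, 10702 and 18558 CPM in SynapTRAP against 5180.1, 2373 and 11294 CPM in TRAP. The Camk2a levels overlap (log2 1.17 ± 0.38, adjusted p = 0.0185). Its estimate ran from 0.75 without TRAP 2 to 1.89 without TRAP 3, and it was not called without SynapTRAP 3, TRAP 1 or TRAP 2. Shank1, at 5146, 3862 and 5449.6 CPM in SynapTRAP against 1413, 810.4 and 4093 CPM in TRAP, behaved alike (log2 1.195 ± 0.41; 0.78 without TRAP 2, 2.11 without TRAP 3, and not called without SynapTRAP 1, SynapTRAP 3, TRAP 1 or TRAP 2). The microtubule-associated Map2, at 1659, 1220.5 and 3937 CPM in SynapTRAP against 883, 656 and 1324 CPM in TRAP, rose by 1.25 ± 0.35 but by 0.66 and below the threshold without SynapTRAP 3. Nrgn (neurogranin), a small calmodulin-binding protein, fell, at 454, 433 and 450.1 CPM in SynapTRAP against 805, 773 and 642 CPM in TRAP (log2 -0.73 ± 0.21, adjusted p = 0.00869), but was not called when only these 6 libraries were fitted (adjusted p = 0.0708). The activity-induced Arc, at 396, 806 and 819 CPM in SynapTRAP against 278, 399 and 552 CPM in TRAP, did not pass the test (log2 0.72 ± 0.33, adjusted p = 0.0916), but did without SynapTRAP 1 (1.01) or TRAP 3 (0.996). With all libraries kept, Arc passed with no low count filter (0.68) and with a replicate block (0.68).

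On the presynaptic side, active zone genes gave 8 rises and 3 falls among 20 (4 rose without TRAP 2), beside 22.3% and 18.5% of all genes. Their falls, and their rises without TRAP 2, lie near those shares. The scaffold Rims1 rose, at 526, 379 and 1288 CPM in SynapTRAP against 264, 236 and 349.5 CPM in TRAP (log2 1.37 ± 0.33, and 0.74 without SynapTRAP 3), and Lin7b and the priming factor Unc13b fell by 1.57 and 1.15. Endocytosis genes, whose proteins act from the cytosol, gave 9 falls and 2 rises among 25 (1 rise without TRAP 1, TRAP 2 or any 1 WCH library). The membrane-bending Sh3gl2 was at 189.6, 255 and 171 CPM in SynapTRAP against 659, 589 and 717 CPM in TRAP (log2 -1.67 ± 0.22, adjusted p = 6.1e-06), the adaptor subunit Ap2s1 at 89.3, 72.6 and 56.2 CPM in SynapTRAP against 187, 335 and 294 CPM in TRAP (log2 -1.897 ± 0.25), and the clathrin light chain Cltb fell by 1.24.

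Mitochondrial genes split by genome. Of 9 tested mRNAs of the mitochondrial genome 8 rose and none fell (median 3.92), and they summed to 25730, 17608 and 51994 CPM in SynapTRAP and 2099, 426 and 4816 CPM in TRAP. mt-Nd1, a subunit of complex I, was at 6216, 3153 and 8824 CPM in SynapTRAP against 402, 79.3 and 596 CPM in TRAP (log2 4.08 ± 0.61, adjusted p = 0.000134), and mt-Co1, the catalytic subunit of complex IV, at 8731, 7257 and 14758 CPM in SynapTRAP against 545, 133 and 1349 CPM in TRAP (log2 3.92 ± 0.64, and 4.89 without TRAP 3). When only these 6 libraries were fitted, 7 of these mRNAs were tested and 3 called, and mt-Nd6 (adjusted p = 0.0691) and mt-Nd2 (0.0531) were not. The rises of mt-Rnr1 (4.84) and mt-Rnr2 (4.52) came to 3.92 and 3.41 without SynapTRAP 3, mt-Rnr2 to 3.93 without TRAP 2, mt-Tc (5.67) to 6.61 without TRAP 1, mt-Nd2 (4.11) to 3.30 without SynapTRAP 3, and mt-Nd6 (4.25) to 3.66 without TRAP 2 and 5.07 without TRAP 3.

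The nuclear genes for the same complexes went the other way. Of 76 nuclear-encoded respiratory chain genes, 45 fell and none rose (median -0.80), against 18.5% and 22.3% of all genes. The complex III subunit Uqcr10 was at 109, 129 and 119.5 CPM in SynapTRAP against 269.6, 406 and 512 CPM in TRAP (log2 -1.73 ± 0.24, adjusted p = 1.48e-05), the complex I subunit Ndufa6 at 23.6, 29.6 and 29.7 CPM in SynapTRAP against 88.6, 119 and 67.2 CPM in TRAP (log2 -1.73 ± 0.24) and the ATP synthase subunit Atp5mpl at 76.8, 76.1 and 94.6 CPM in SynapTRAP against 187, 311 and 284 CPM in TRAP (log2 -1.66 ± 0.23). No SynapTRAP library reached a TRAP library for these 3 genes. Of 74 mitochondrial ribosomal protein genes 54 fell and none rose (median -1.08), with Mrps12 at 41.01, 20.2 and 32.5 CPM in SynapTRAP against 100.2, 117 and 135 CPM in TRAP (log2 -1.91 ± 0.26) and Mrpl43 and Mrpl4 at -1.56 and -1.45. Leaving out 1 library at a time gave 39 to 45 falls on the first list and 47 to 54 on the second, and rises only on the first (1 without SynapTRAP 1, 2 without TRAP 1).

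Lists of other soluble machines gave mostly falls among their calls, beside 18.5% of all genes that fell and 22.3% that rose. Of 36 proteasome genes 26 fell and 1 rose (median -0.77; 17 fell without SynapTRAP 3 or without TRAP 3, and 11 without both), with the core subunit Psma7 at 79.5, 81.6 and 55.2 CPM in SynapTRAP against 165, 145 and 152 CPM in TRAP (log2 -1.09 ± 0.21) and the regulatory subunits Psmd4 and Psmc2 at -1.07 and -1.06. Of 17 glycolysis genes 8 fell and 2 rose. Tpi1 was at 107, 99.04 and 85.8 CPM in SynapTRAP against 209, 227 and 277 CPM in TRAP (log2 -1.29 ± 0.21), and Ldha and Aldoa fell by 1.26 and 1.15, whereas Aldoc, the aldolase of astrocytes, rose by 2.44. Translation factors gave 19 falls and 2 rises among 53, with the start-codon factor Eif1 at 30.8, 29.5 and 46.8 CPM in SynapTRAP against 101, 156 and 103 CPM in TRAP (log2 -1.76 ± 0.25), Eif2b1 at -1.53 and Eif5a at -1.19, while Eif3a, the largest initiation subunit, rose by 0.89. The cochaperone Dnajb1 (-1.41) and Hsph1 (-1.06) were among 8 falls in 20 chaperonin and heat shock genes (3 without TRAP 3, 5 without SynapTRAP 1 or SynapTRAP 3). Cytosolic ribosomal protein genes showed 5 falls and 2 rises among 68 (median -0.18; 3 falls without SynapTRAP 1, SynapTRAP 2 or TRAP 2, 2 without TRAP 3 and 10 without TRAP 1). Reads of these genes can be split with their many processed copies.

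Cytoskeletal lists other than the spectrin and ankyrin genes gave more falls than rises, beside 18.5% of all genes that fell and 22.3% that rose. The rises of motor and tubulin genes lie near or below the share of all genes. Of 30 actin and actin-binding genes 12 fell and 2 rose (median -0.66; 5 fell when only these 6 libraries were fitted). The Arp2/3 subunit Arpc2 was at 129, 155 and 101 CPM in SynapTRAP against 309.7, 227 and 237 CPM in TRAP (log2 -1.004 ± 0.22), and Wasf1 and cofilin (Cfl1) fell by 1.07 and 0.96. Actb itself was at 929, 1257 and 667 CPM in SynapTRAP against 918, 735 and 1663 CPM in TRAP, with a log2 fold change of -0.22 that turned to 0.06 without SynapTRAP 3 and 0.22 without TRAP 3. Among 25 motor genes 11 fell and 5 rose (3 rose without TRAP 2). Light chains of dynein and a small dynactin subunit fell (Dynll1 -1.77, Dynlrb1 -1.68, Dctn3 -1.61). Among the rises were kinesin heavy chains, Kif5b at 456, 359.9 and 783 CPM in SynapTRAP against 196, 81.2 and 195 CPM in TRAP (log2 1.76 ± 0.31, adjusted p = 0.000167) and Kif5c at 1560.5, 1401 and 2621 CPM in SynapTRAP against 767, 491 and 760.1 CPM in TRAP (log2 1.47 ± 0.27). Of 31 tubulin and microtubule-associated genes 12 fell and 5 rose (falls came to 6, 6 and 5 without SynapTRAP 1, SynapTRAP 3 and TRAP 3, and rises to 3 without SynapTRAP 3). Mapre2, at 272, 262 and 259 CPM in SynapTRAP against 519.8, 587 and 613 CPM in TRAP, and Map1lc3a fell by 1.12 and 1.24, and Tubb2b and Map4 rose by 1.99 and 1.18. Of 12 spectrin and ankyrin genes 2 rose and none fell, but 5 rose without TRAP 3 and 5 fell without TRAP 2. Of 4 neurofilament genes 2 fell (1 without SynapTRAP 1, SynapTRAP 3, TRAP 1, TRAP 3, WCH 3 or any 1 SNF library).

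Beside the 22.3% of all genes that rose and the 18.5% that fell, lists of nuclear and RNA-binding proteins differed among themselves. Immediate early genes, which neurons switch on with activity, gave 6 falls and no rise among 18: Egr1 was at 249, 502 and 284 CPM in SynapTRAP against 766, 1010.1 and 1296 CPM in TRAP (log2 -1.57 ± 0.27, adjusted p = 0.000133), and Fos and Nr4a1 fell by 1.45 and 1.45. Transcription factors gave 7 of each among 29, shares near those of all genes (4 rises without TRAP 2, 3 falls without SynapTRAP 1). The glial and progenitor factors Nfia and Zbtb20 rose by 1.79 and 1.79, and the cortical neuron factors Neurod6 and Bcl11a fell by 1.896 and 1.105. Of 30 splicing factors 6 fell, a share near that of all genes, and none rose (10 fell without SynapTRAP 3), with Rbfox1 at 194, 208 and 259.7 CPM in SynapTRAP against 504, 405 and 434 CPM in TRAP (log2 -1.02 ± 0.22) and Sf3b2 at -0.79; Prpf8, at -0.88, was not called without SynapTRAP 3 (-0.57). RNA-binding proteins of local translation gave 4 of each among 27, again near the shares of all genes (2 rises without TRAP 1 or TRAP 2, 2 falls without TRAP 1 or TRAP 3). Purb, a protein of RNA transport granules, was at 1200.3, 781 and 2507 CPM in SynapTRAP against 374, 279.5 and 435 CPM in TRAP (log2 2.04 ± 0.34, adjusted p = 9e-05), and Pum2 rose by 0.99. Cpeb1 and Elavl4 fell by 1.03 and 1.15, Elavl4 not called without TRAP 3 (-0.77). Chromatin genes gave 2 of each among 26 (no rise without TRAP 1 or TRAP 2, 4 without SynapTRAP 2).

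The nuclear noncoding RNAs depended on 1 library and on the fit. Malat1, which stays in the nucleus, was at 325, 312 and 3493 CPM in SynapTRAP against 3543, 1536 and 2942 CPM in TRAP, and Meg3 at 1.69, 0.481 and 14.7 CPM in SynapTRAP against 9.78, 7.09 and 12.7 CPM in TRAP. SynapTRAP 3 lay above TRAP 2 and TRAP 3 for Malat1 and above every TRAP library for Meg3. For both RNAs the other SynapTRAP libraries lay below every TRAP library. Neither passed the test (log2 -0.96 and -0.99, adjusted p = 0.457 and 0.435), whereas without SynapTRAP 3 both did (-3.01 and -3.11). Of the 7 genes on the list 5 passed without that library, and none in the main fit with it. With all libraries kept, Malat1 and Meg3 passed in edgeR with no low count filter (-1.09 and -1.08, adjusted p = 0.0264 and 0.0252). They also passed with totals that include the mitochondrial genome (-2.39 and -2.27). Both passed too in limma voom with sample quality weights, under which libraries need not count equally (-2.31 and -2.52). Strand use in the counting was not given in the sources used here, so reads of a gene and of an antisense partner cannot be told apart.

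The same step without pull-down, from WCH to SNF, gave 2774 genes higher (21.1%) and 2250 lower (17.1%). The count of lower genes was unstable: it was 784, 843 and 1292 without SNF 1, 2 and 3, 956 without WCH 2, 1012 without WCH 3 and 1429 with RLE scaling. Across the 13137 genes the log2 fold changes of both steps correlated (Pearson r = 0.69, Spearman rho = 0.68), a description over genes that are not independent. Of the genes higher in SynapTRAP 67.1% were also higher in SNF, and these were 71.0% of the genes higher in SNF. For genes that were lower the shares were 42.8% and 46.3%, which rest on that unstable count. Opposite calls were few: 11 genes were higher in SynapTRAP and lower in SNF, and 6 the reverse. All 6 of the latter encode mitochondrial proteins, namely the respiratory chain subunits Uqcr11, Cox7a2, Ndufa3, Ndufa13 and Cox6b1 and the outer membrane protein Cisd1, and were named after their values were seen. Ndufa13 stood at -1.06 in SynapTRAP over TRAP and 0.99 in SNF over WCH.

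**Figure D4:**
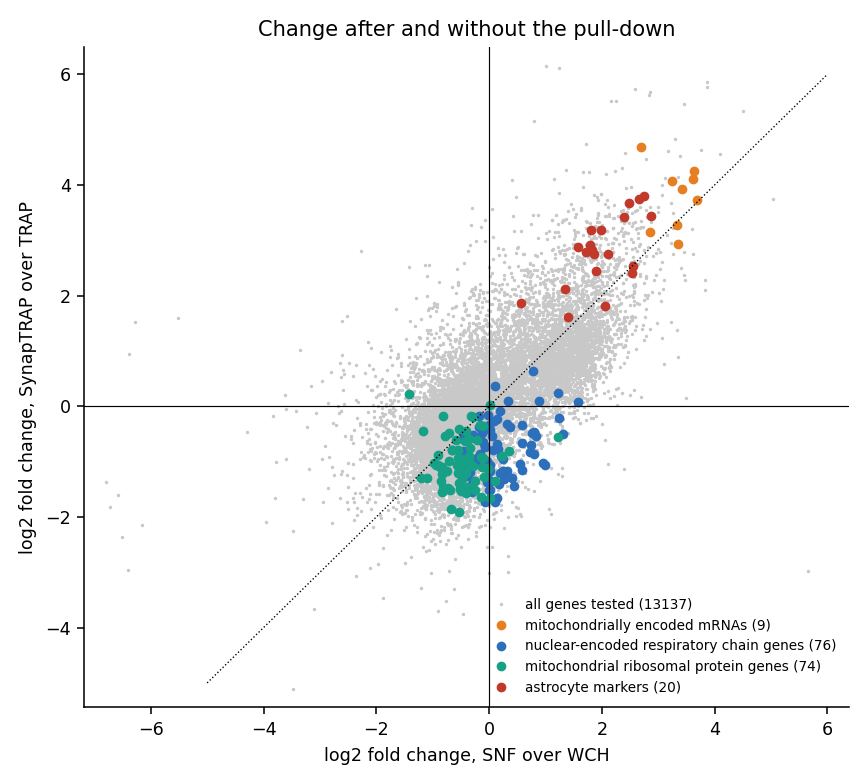
log2 fold change of the 13137 tested genes in SynapTRAP over TRAP against SNF over WCH; coloured points are 4 lists with their numbers tested, and the dotted line marks equal values. Mitochondrially encoded mRNAs and astrocyte markers lie high on both axes, while nuclear-encoded respiratory chain genes lie near 0 in SNF over WCH (median 0.10) and below it in SynapTRAP over TRAP (median -0.80).

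The test of the difference between both steps called 75 genes higher (0.571%) and 51 lower (0.388%) after the pull-down than without it. Of the 51, 19 were nuclear-encoded respiratory chain genes, among them Ndufa13 (difference -2.05 ± 0.36, adjusted p = 0.0115) and Uqcr10 (-1.84 ± 0.34, adjusted p = 0.0159). That list had 14 rises and 1 fall in SNF over WCH. Romo1, a small protein of the inner mitochondrial membrane, stood at -1.47 ± 0.25 after the pull-down and 0.63 without it (difference -2.096 ± 0.36, adjusted p = 0.0115). Nop10, a small nucleolar protein, stood at -1.87 ± 0.25 and 0.21, and Ttc9b at -2.16 ± 0.28 and -0.14. Yipf3, a Golgi membrane protein, rose without the pull-down (1.897) and not after it (-0.18, which changed sign without SynapTRAP 3). In the other direction 2 of 20 oligodendrocyte markers, 2 of 11 oligodendrocyte precursor markers and none of 20 microglia markers were called. Among the largest differences of the 75, Ermn, a cytoskeletal protein of myelinating cells, stood at 2.15 ± 0.39 after the pull-down and -0.26 without it, the receptor Gpr34 at 4.23 ± 0.47 and 1.77 (4.93 without TRAP 3), and Snap23 and the mitochondrial Efhd1 at 2.01 and 2.73 against -0.29 and 0.28. Dusp11 fell without the pull-down (-1.902) and stood at 0.48 after it. This contrast depended on single libraries: edgeR called no gene in either direction without SNF 1 or without WCH 2 (1963 and 1739 genes at an unadjusted p under 0.05), and 163 and 271 were without SynapTRAP 2. At an unadjusted p under 0.05 it held 2306 genes, and DESeq2 called 176 and 399.

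Genes that rose were longer than genes that fell. Over GENCODE M21 gene models, the median coding length was 1683 nt for 2874 protein-coding genes that rose, 1028 nt for 2384 that fell and 1455 nt for all tested, and the median 3′UTR was 1498, 738 and 1058 nt. In the quartile of genes with the shortest coding sequence, 14.1% rose and 32.7% fell, and in the longest quartile 29.8% rose and 8.0% fell. In SNF over WCH the shortest quartile had 17.1% higher and 16.6% lower and the longest 23.4% and 14.8%. By 3′UTR length, rises went from 15.1% in the shortest quartile to 32.0% in the longest, and falls from 24.7% to 11.1%. In SNF over WCH, genes higher went from 17.1% to 26.2% and genes lower from 11.5% to 22.4%. GC content differed little in SynapTRAP over TRAP, with medians of 49.8% for rises and 51.5% for falls. By quartile of GC content, genes lower in SNF over WCH went from 28.5% in the lowest to 7.6% in the highest. Genes higher there went from 18.8% to 24.3%.

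**Figure D5:**
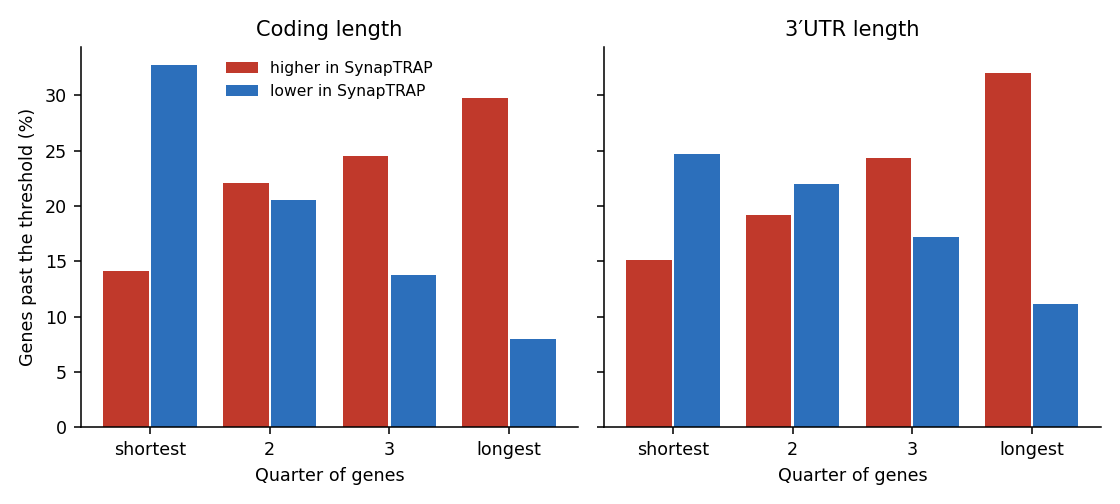
Share of protein-coding genes with an adjusted p under 0.05 in each direction, SynapTRAP over TRAP, by quartile of coding length (left) and 3′UTR length (right); each quartile holds 3174 or 3175 genes. Falls go from 32.7% to 8.0% from the shortest to the longest coding sequences, and rises from 14.1% to 29.8%.

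The authors' deposited tables name 109 genes as locally and 275 as somatically enriched. Of the 109, 86 rose in SynapTRAP over TRAP and 1, Prpf8, fell (median 1.16), and of the 275 none rose and 247 fell (median -1.19). The tables were made from libraries of this series, so these counts are not independent evidence of a direction. The authors' deposited tables give each gene a log2 fold change headed by TRAP and another headed by column, without naming the groups behind them. All 109 genes have both values above 0 in the authors' deposited table, and all 275 have the first above 0 and none the second. Of the 109, 9 are on the list of mRNAs carried into dendrites and 2 on a list of non-neuronal markers.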

How the data were processed

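RNA of 12 libraries, 3 per group, was counted per gene by the authors, and the deposited values are raw read counts. The submitters' processing notes name Bowtie2, STAR, HTSeq and edgeR; their versions, the genome build and the strand setting were not given in the sources used here. The authors' deposited tables of candidate genes hold log2 fold changes, p-values and false discovery rates, and likelihood ratio scores, per the file headers.

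The 5 summary rows, which name no gene and held 28.2% to 58.3% of the reads counted in the 6 libraries, were removed. Gene symbols came from GENCODE M21 for 28842 of 29879 gene IDs and from the authors' tables for 13; 1023 had none, and GFP has its own name. Counts were fitted in edgeR 4.0.16 (R 4.3.3) with the robust quasi-likelihood test over all 12 libraries and group means, after the default expression filter. Library sizes and TMM factors left out the 37 genes of the mitochondrial genome. Calls used a Benjamini-Hochberg adjusted p under 0.05 over the 13137 tested genes. CPM are counts per 1000000 of the same scaled library sizes. Values after ± are standard errors of a log2 fold change. The fit was tested on simulated data with the same spread for every gene. It recovered 96% of 4-fold rises and 92% of 4-fold falls, but 28% of 2-fold rises and 12% of 2-fold falls. Of its calls there 6.56% were false.

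The members and gene lists were chosen with earlier results of these data known. Named genes were the 12 largest rises and falls (groups not overlapping, at least 20 CPM), up to 3 called members per list in the direction with more calls and 2 in the other, up to 5 of the largest called differences between both steps in each direction, and a fixed set of tag, synaptic and nuclear genes. Cplx1, Gphn, Nsf, Sec22b, Sec61a1, Sec61b, Stx1a, Sv2a, Sv2c, Syt1, Syt2, Vamp1 and Vamp2 fall outside this rule and were named after their values were seen. Some genes under this rule are not reported here. Lists got no test of their own. Alternatives were DESeq2 1.42.0, limma 3.58.1 voom with sample quality weights, other scalings and no filter. Others were a replicate block, the 6 libraries alone and each library left out. Leaving out SynapTRAP 3 and TRAP 3 together was chosen after seeing the data. Protein features planned for the comparison were not analysed here.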

Additional observations from a re-analysis of the deposited data

Results flagged for a closer look

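Among 167 genes named by rule, 20 had a difference between the step after the pull-down (SynapTRAP over TRAP) and the step without it (SNF over WCH) that passed edgeR's test of that difference, 7 upward and 13 downward. Values here are the log2 fold change of the first step less that of the second. The upward genes were Gpr34 (2.46), Efhd1 (2.446), Ermn (2.405), Dusp11 (2.388), Snap23 (2.3), Purb (2.156) and Tspan2 (1.667). Ermn and Tspan2 are oligodendrocyte markers.

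Downward were 5 nuclear genes of mitochondrial proteins, Romo1 (-2.096), Ndufa13 (-2.05), Uqcr10 (-1.839), Atp5mpl (-1.796) and Ndufa6 (-1.657). The others were Nop10 (-2.082), Yipf3 (-2.078), Ttc9b (-2.022), Fbll1 (-2.02), the spine exchange factor Kalrn (-1.799), the clathrin adaptor subunit Ap2s1 (-1.548), the dynactin subunit Dctn3 (-1.498) and Bex3 (-1.386). Leaving out SNF 1 or WCH 2 left no gene called in this contrast in either direction, with 1963 and 1739 genes at an unadjusted p under 0.05.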

How the results depend on the processing

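SynapTRAP over TRAP kept both counts within 1.5 times of 2936 higher and 2434 lower under DESeq2, voom, RLE factors, no filter and each library left out (2358 to 3148 higher, 1797 to 2341 lower), and gave 3148 and 2296 without both SynapTRAP 3 and TRAP 3. The 6 libraries alone gave 2306 and 1635. Total counts that include the mitochondrial genome gave 596 and 6399, and those outside it 2071 and 3596. In SNF over WCH, the main 2774 higher and 2250 lower became 2988 and 1429 with RLE factors, 3087 and 1502 with DESeq2, 3484 and 3652 with voom, 2072 and 4850 with totals outside the mitochondrial genome, 11 and 11438 with totals that include it, and 2307 to 3091 higher and 784 to 1867 lower with 1 library left out. The difference between both steps (75 and 51) came to 176 and 399 with DESeq2, 38 and 76 with RLE, 196 and 240 with voom, 196 and 268 with no filter, 112 and 40 with totals outside the mitochondrial genome, 6328 and 0 with totals that include it, 79 and 87 without SynapTRAP 3 and TRAP 3, and 0 to 163 and 0 to 271 with 1 library left out. The cause of these shifts was not tested.

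Same-numbered libraries were not shown to pair: their deviations from group means correlated at 0.112, 0.143 and 0.097 for SynapTRAP with TRAP and 0.172, 0.084 and 0.063 for SNF with WCH, each library best with its own number, a hint from the data only. With a replicate block the calls were 3081 higher and 2554 lower, and 222 and 150 for the difference between both steps.

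When only the 6 libraries were fitted, mt-Nd6, mt-Nd2, Hist1h4d, Camk2a, Shank1 and Nrgn lost their calls (adjusted p 0.0531 to 0.0738). With totals that include the mitochondrial genome 39 of 167 named genes lost theirs with the sign kept. Among them were Syp, Canx, Kif5c, Shank3, Ddn and Erbb4. Eif3a and Pum2 lost theirs as their sign changed. All 167 named genes kept direction and call under DESeq2, RLE factors and TMM with mitochondrial genes. Malat1, Meg3 and Mbp gained a call with no filter and with voom, and Arc with no filter and with a replicate block. Signs turned for Rpl10a (-0.69), Arc (-0.235), Dlg4 (-0.972), Slc17a7 (-0.289), Dusp11 (-0.522), Eif3a (-0.024) and Pum2 (-0.127) with totals that include the mitochondrial genome, and for Dlg4 (-0.228) with totals outside it. Without SynapTRAP 3 and TRAP 3 they turned for Actb (0.458), Gad1 (0.134) and Yipf3 (0.175), and with voom for Gad1 (0.07). With 1 library left out Dlg4 ran from -0.194 to 0.211, Actb from -0.476 to 0.224, Gad1 from -0.278 to 0.26 and Yipf3 from -0.46 to 0.087. Counts of 0 to 2 calls in 1 direction on the cholesterol, potassium channel, actin, glycolysis, proteasome, ribosomal protein, translation factor, immediate early and splicing lists, and on the blood marker list, moved by 1 or 2 genes with single libraries left out. Depth outside the mitochondrial genome was lowest in SNF 1, with 1819853 counts, and among the 6 libraries of the comparison in SynapTRAP 3, with 3585898.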
